A study of Mus musculus with 9 samples.

Results

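The adenylyl cyclase family of the mouse was followed through RNA-seq libraries of olfactory sensory neurons sorted by the reporter of a tagged odorant receptor gene. The members are the 9 genes Adcy1, Adcy2, Adcy3, Adcy4, Adcy5, Adcy6, Adcy7, Adcy8 and Adcy9, taken by symbol from tables of 55291 genes, and all 9 were found. The cells came from mice in which the transcript of 1 receptor gene also encodes a fluorescent protein: Olfr1507-IRES-GFP, Olfr73-IRES-GFP or Olfr160-IRES-mCherry. The groups are called Olfr1507, Olfr73 and Olfr160 after the tagged allele, with 3 libraries in each and 9 in all. For all groups the main olfactory epithelium was digested with papain, and cells bright for the reporter and dim for the dead-cell dye DAPI were sorted. Polyadenylated RNA was then sequenced from a low-input library kit. The mCherry tag was used in Olfr160 and the GFP tag in the other groups, so that reporter and receptor cannot be told apart where Olfr160 is compared. The sources used here give no age, sex or strain background. GEO's design text mentions duplicates although each group has 3 libraries, and no label ties a library to an animal of its own. The p-values below thus measure only how far these libraries spread, and that spread may be technical.

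Adenylyl cyclases are membrane enzymes that make the second messenger cyclic AMP (cAMP) from ATP. In the cilia of olfactory neurons an odorant receptor activates the G protein Golf, whose alpha subunit (Gnal) stimulates the type 3 enzyme, Adcy3, and the cAMP opens a cyclic nucleotide-gated channel (Cnga2, Cnga4, Cngb1). The membrane cyclases all respond to stimulatory G alpha subunits and differ in what else they sense. Adcy1, Adcy3 and Adcy8 are classed as stimulated by calcium and calmodulin, Adcy5 and Adcy6 are inhibited by calcium, Adcy2, Adcy4 and Adcy7 are stimulated by G beta gamma subunits, and Adcy9 responds poorly to the plant compound forskolin.

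The genes lie at 9 places on 7 chromosomes of the mouse genome (GENCODE M21 annotation of mm10). Adcy3 lies at chr12:4133103-4213525 on the plus strand and Adcy5 at chr16:35154877-35305738 on the plus strand, on the same chromosome as Adcy9 (chr16:4287529-4420498, minus strand). Adcy1 is at chr11:7063489-7178506 (plus), Adcy2 at chr13:68620043-68999541 (minus), Adcy4 at chr14:55769057-55784095 (minus) and Adcy7 at chr8:88272403-88329962 (plus). Adcy6 (chr15:98589973-98610076, minus) and Adcy8 (chr15:64697084-64922296, minus) share a chromosome. The 250 bases before the RefSeq start of Adcy5 (chr16:35154614-35154863, plus strand, GRCm38.p6) are shown because Adcy5 was the 1 tested member called in all 3 comparisons below, and they overlapped 0 annotated exons. Capitals mark each CG dinucleotide.
Adcy5: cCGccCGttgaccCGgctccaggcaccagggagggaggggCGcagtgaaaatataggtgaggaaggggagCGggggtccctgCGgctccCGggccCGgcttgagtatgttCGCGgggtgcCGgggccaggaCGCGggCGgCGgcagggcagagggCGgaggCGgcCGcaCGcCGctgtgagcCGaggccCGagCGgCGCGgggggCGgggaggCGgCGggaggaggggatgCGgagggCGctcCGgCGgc
This window held 32 CG dinucleotides and 78% G+C, more CG dinucleotides than 95.4% of 32851 such RefSeq windows, whose medians were 6 CG dinucleotides and 52.4% G+C. The window of Adcy9 held 34 CG dinucleotides and that of Adcy1 held 26, while the 3 windows of Adcy7 held 3 to 5.

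The libraries held 17212782 to 36230587 rounded expected counts. The tagged receptor took 90.5 ± 4.87% of all Olfr counts in Olfr1507, 26.4 ± 5.58% in Olfr73 and 5.58 ± 4.11% in Olfr160 (mean ± SD, n = 3 libraries each). The 10 markers of mature olfactory neurons, among them Omp, Gnal and Cnga2, summed to 99298 to 102284 TMM-normalised counts relative to library size (normalised CPM) in Olfr1507, 51436 to 54525 in Olfr73 and 25659 to 44615 in Olfr160, so the labelled cell type carried its markers in every library. Of 9 marker lists of other cell types, 7 had their lowest mean sum in Olfr1507 and their highest in Olfr160. The mean sums of the microvillar and brush cell list and of the necklace neuron list were lowest in Olfr73. In Olfr1507 these sums were mostly Pou2f3 and Car2, at means of 60.6 and 80.1 normalised CPM. Of the same lists, Ascl3, Cftr, Chat, Foxi1, Gucy2d and Pde2a were lowest in Olfr1507, and Trpm5 and Cnga3 in Olfr73. The 6 microvillar and brush cell markers summed to 54.5 to 75.05 normalised CPM in Olfr1507, 25.7 to 45.4 in Olfr73 and 84.0 to 111 in Olfr160. The 11 sustentacular and gland cell markers summed to 286 to 848 normalised CPM in Olfr1507, with Sox10 at 0, 3050 to 5587 in Olfr73 and 20850 to 51205 in Olfr160. The 12 immune markers summed to 2.48 to 6.36 normalised CPM in Olfr1507, with Csf1r and C1qc at 0, 78.1 to 111 in Olfr73 and 249 to 739 in Olfr160. The 9 basal and progenitor markers gave 3.45 to 7.0 in Olfr1507, 47.7 to 85.2 in Olfr73, both with Neurog1 at 0, and 258 to 499 in Olfr160. The 8 endothelial markers gave 1.35 to 2.77 in Olfr1507 (Cldn5 and Tie1 at 0), 3.92 to 6.52 in Olfr73 (Cdh5 and Tie1 at 0) and 15.7 to 18.3 in Olfr160. The 7 immature neuron markers summed to 3410 to 3961 normalised CPM in Olfr1507, 4272 to 4945 in Olfr73 and 2702 to 4045 in Olfr160. This sum was highest in Olfr73, and Olfr1507 and Olfr160 overlapped. Most of it was Ncam1, with means of 2974 (Olfr1507), 3452 (Olfr73) and 1886 (Olfr160). Of the 7, only Ncam1 had its highest mean in Olfr73. Means of Tubb3, Stmn1, Stmn2, Gap43 and Gng8 were highest in Olfr160, and that of Dcx in Olfr1507. In such bulk libraries, fewer cells of a type and less RNA per cell cannot be told apart.

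**Figure D1:**
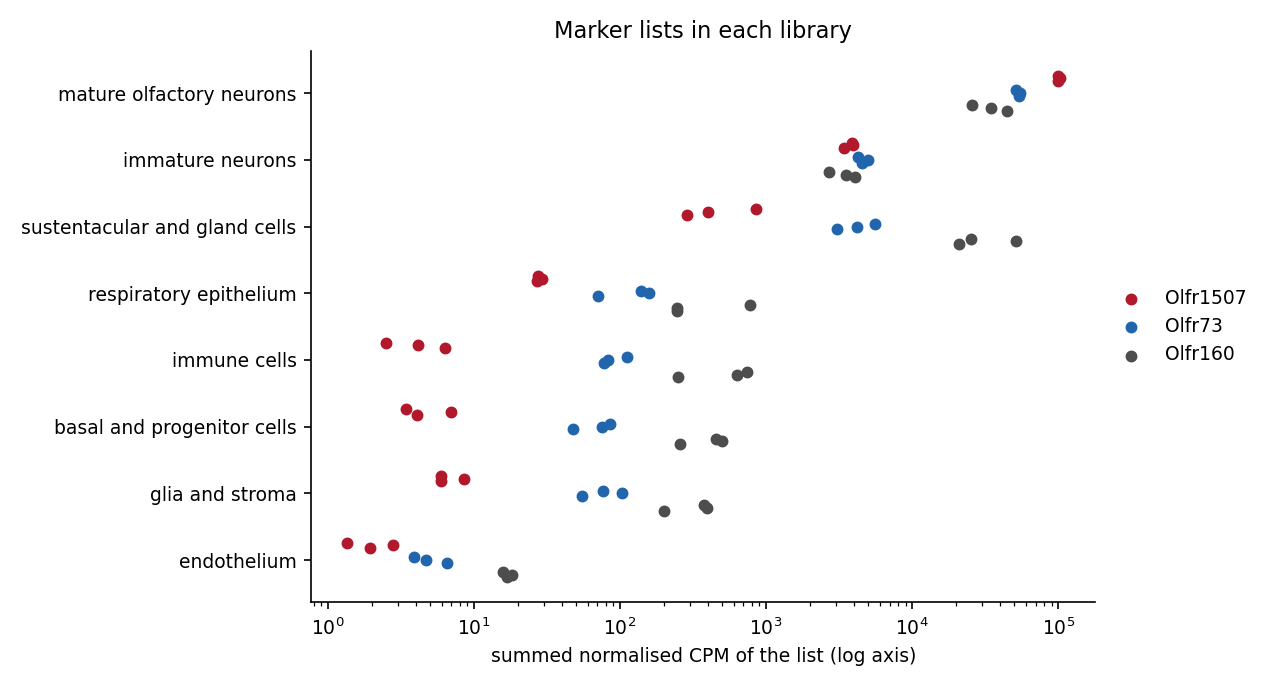
Summed normalised CPM of 8 marker lists (log axis) in each of the 9 libraries, 1 point per library, coloured by group. Mature neuron markers were highest in the 3 Olfr1507 libraries (99298 to 102284) and lowest in the Olfr160 libraries (25659 to 44615), while sustentacular and gland cell markers ran from 286 to 848 in Olfr1507 to 20850 to 51205 in Olfr160.

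Adcy3 carried nearly all cyclase RNA in every library. Compared per length, in TPM (transcript abundance relative to all transcripts of the library), it took 97.2 ± 0.380% of the summed TPM of the 9 genes in Olfr1507, 98.7 ± 0.283% in Olfr73 and 96.0 ± 2.71% in Olfr160 (SD, n = 3 each). The lowest share, 93.0%, belonged to an Olfr160 library. Its share was 1.22 percentage points higher in Olfr1507 than in Olfr160 (exact two-sided permutation test, p = 0.7), 1.51 points lower in Olfr1507 than in Olfr73 (p = 0.1, exact) and 2.73 points higher in Olfr73 than in Olfr160 (p = 0.1, exact). With 3 libraries against 3 the smallest p this test can give is 0.1, so no such share could pass 0.05. Without Olfr160 library 1 the first difference turned to -0.27 points.

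In TPM, Adcy3 reached 543, 549.8 and 511 in the Olfr1507 libraries, 237, 265 and 223 in the Olfr73 libraries and 141, 206 and 263 in the Olfr160 libraries. The Olfr1507 libraries were all above the others, and the Olfr73 and Olfr160 libraries overlapped. Among the 16399 genes with enough counts to be tested, its mean TPM ranked 240 in Olfr1507, 600 in Olfr73 and 784 in Olfr160. In expected counts, Adcy3 had 27604, 47102 and 25788 in Olfr1507, 13313, 14368 and 12034 in Olfr73, and 7148, 12441 and 14258 in Olfr160, so counting error was small against the spread between libraries.

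The second cyclase differed between the groups. In Olfr1507 it was Adcy5, an enzyme best known from the striatum and the heart, at 16.6, 12.8 and 15.4 TPM. No other member went above 0.36 TPM in those libraries, and Adcy9, Adcy6 and Adcy7, next in order by mean TPM, overlapped each other. In Olfr73 the second was Adcy9, at 1.06, 1.45 and 3.04 TPM, a range that overlapped that of Adcy6 (0.99, 1.13 and 0.32 TPM). In Olfr160 it was Adcy6, at 6.17, 2.99 and 1.78 TPM, above Adcy7, Adcy9 and Adcy5, whose ranges overlapped each other. Adcy8, a calmodulin-stimulated enzyme of brain, had 0 counts in all 9 libraries, which allows up to 0.0150 normalised CPM at 3 counts over all libraries, counting error only.

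**Figure D2:**
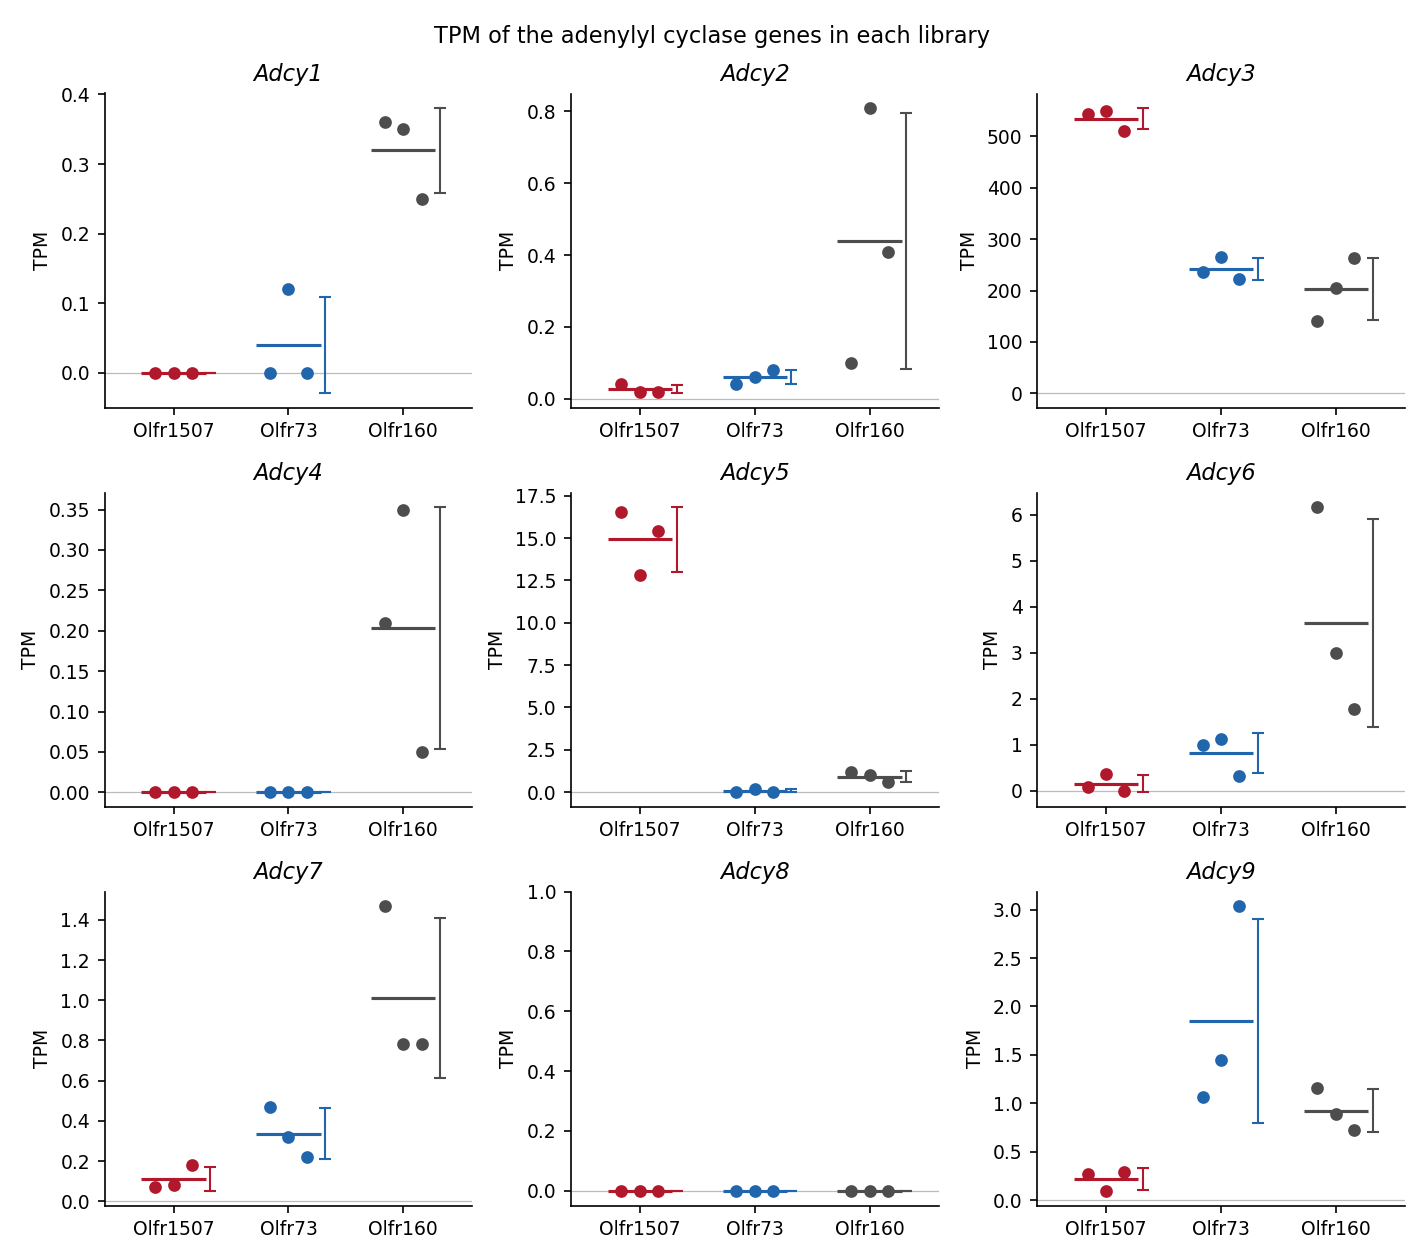
TPM of each of the 9 adenylyl cyclase genes in the 3 Olfr1507, 3 Olfr73 and 3 Olfr160 libraries, with a separate axis for each gene. Points are libraries, horizontal lines are group means and bars are ± SD. Adcy3 runs from 141 to 549.8 TPM and Adcy5 from 12.8 to 16.6 TPM in Olfr1507 against at most 1.16 TPM elsewhere. Adcy1, Adcy2, Adcy4, Adcy6 and Adcy7 had their highest mean in Olfr160.

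All members other than Adcy3 summed to 15.4 ± 1.88 TPM in Olfr1507, 3.17 ± 0.554 in Olfr73 and 7.46 ± 3.04 in Olfr160. Leaving Adcy5 out as well, the sum was 0.503 ± 0.0416 TPM in Olfr1507, 3.1 ± 0.550 in Olfr73 and 6.54 ± 2.76 in Olfr160 (SD, n = 3 each), with no overlap between the groups. The order of the groups in this last sum was that of the sustentacular, immune and basal markers given above. The part of those cells in it was not tested.

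Differences between groups were tested across all genes with edgeR's quasi-likelihood test on the counts, and a gene is called at a Benjamini-Hochberg adjusted p under 0.05. Of the members, 6 passed the filter on low counts (Adcy1, Adcy3, Adcy5, Adcy6, Adcy7 and Adcy9), and Adcy2, Adcy4 and Adcy8 did not. Adcy1 reached the filter's level of 0.475 CPM in 0 Olfr1507 libraries, 1 Olfr73 library and 3 Olfr160 libraries, and Adcy6 and Adcy7 each in 1, 3 and 3. Adcy1 thus passed through Olfr160, and Adcy6 and Adcy7 mainly through groups where they were high. Which members could be counted as called below depended in part on this filter. Of the tested members, 6 of 6 were called between Olfr1507 and Olfr160, against 48.4% of all tested genes. Of these, 2 were higher in Olfr1507 (20.7% of all genes were) and 4 were lower (27.7% of all genes). Between Olfr1507 and Olfr73, 4 were called, against 34.4% of all genes: 2 higher (14.5% of all genes) and 2 lower (19.9%). Between Olfr73 and Olfr160, 1 was called, against 17.9% of all genes (7.45% higher, 10.5% lower). Each group enters 2 of these 3 comparisons, so the comparisons share libraries. With Olfr160 represented by library 3 alone, 2 members were called between Olfr1507 and Olfr160 and 0 between Olfr73 and Olfr160, in a fit where that lone library is assumed to vary like the other groups. Under a filter of 5 CPM in 3 libraries, which Adcy3 and Adcy5 passed, 2 were called in both comparisons of Olfr1507. Among the calls over all genes, 42.8%, 42.2% and 41.6% were higher in the first-named group in these comparisons, against 17.7%, 18.2% and 30.6% when libraries were scaled by size alone and 0.788%, 3.45% and 2.12% when they were scaled to the mature neuron markers.

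**Figure D3:**
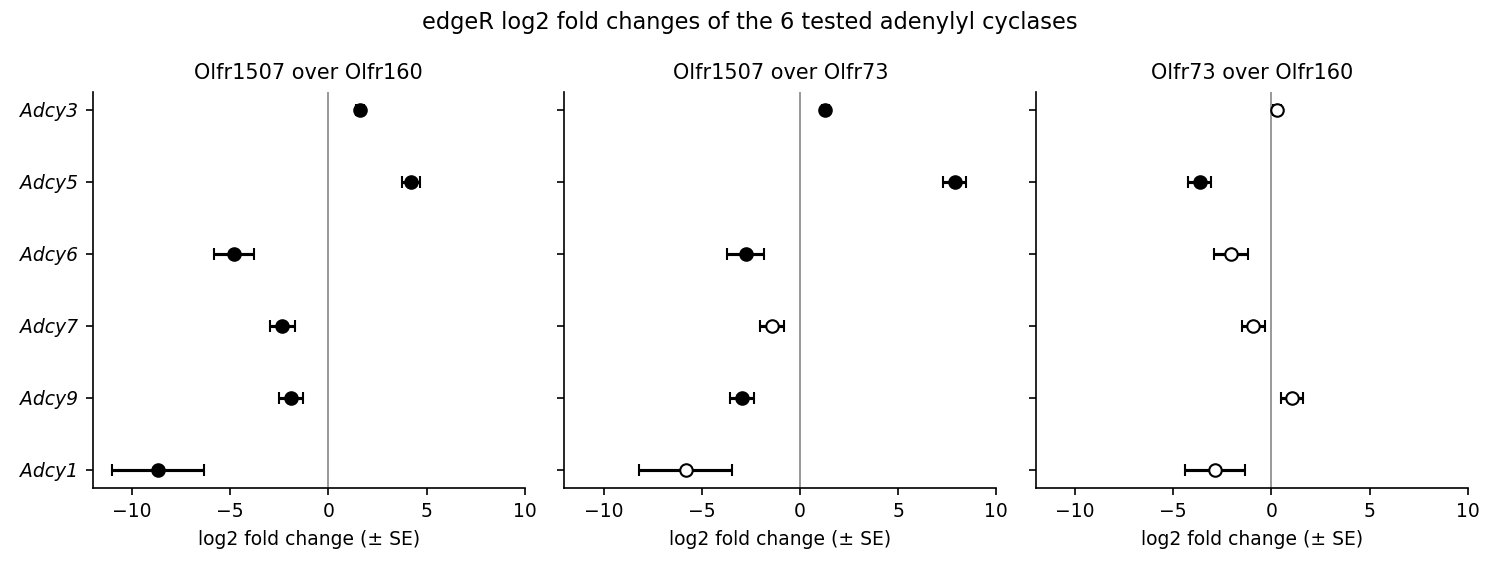
edgeR log2 fold changes of the 6 tested cyclases in the 3 comparisons, with bars of ± SE over 9 libraries. Filled points are called at an adjusted p under 0.05 and open points are not. Adcy3 and Adcy5 lie right of 0 in both comparisons of Olfr1507. The values of Adcy1, which had 0 counts in Olfr1507, depend on the prior count of the fit.

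Adcy3 differed between Olfr1507 and the other groups and not between Olfr73 and Olfr160. In normalised CPM it stood at 1489.8, 1555 and 1439.8 in Olfr1507, at 586, 673 and 561 in Olfr73 and at 344, 503 and 634 in Olfr160. It was 3.03-fold higher in Olfr1507 than in Olfr160 (log2 fold change of 1.60 with an SE of 0.20, edgeR adjusted p = 0.000249) and 2.46-fold higher than in Olfr73 (1.3, SE 0.20, edgeR adjusted p = 0.00136). The Olfr73 and Olfr160 libraries overlapped (0.30, SE 0.19, edgeR adjusted p = 0.312).

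The size of this difference depended on what the libraries were scaled to. Per 1000 normalised CPM of the summed mature neuron markers, Adcy3 stood at 15.0, 15.2 and 14.4 in Olfr1507, at 11.4, 12.3 and 10.5 in Olfr73 and at 13.4, 14.6 and 14.2 in Olfr160. On this scale the Olfr1507 and Olfr160 libraries overlapped and the Olfr73 libraries were the lowest. When edgeR was fitted with the libraries scaled to these markers, the log2 fold change of Adcy3 was 0.079 between Olfr1507 and Olfr160 (SE 0.10, adjusted p = 0.482), 0.38 between Olfr1507 and Olfr73 (adjusted p = 0.0121) and -0.30 between Olfr73 and Olfr160 (adjusted p = 0.0512). That scaling moved the median log2 fold change of all genes to -1.74, -1.07 and -0.69 in the 3 comparisons, against -0.14, -0.15 and -0.012 with TMM. Scaling to library size alone gave medians of -0.56, -0.47 and -0.12, log2 fold changes of Adcy3 of 1.19, 0.99 and 0.20, and the same calls for all 6 tested members.

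Single partners of the cascade gave different yardsticks. Per 1000 normalised CPM of Gnal, Adcy3 averaged 80.9 ± 0.611 in Olfr1507, 51.4 ± 5.59 in Olfr73 and 75.6 ± 4.59 in Olfr160. Per 1000 of the channel subunit Cnga2 it averaged 139 ± 5.97 in Olfr1507, 131 ± 13.8 in Olfr73 and 158 ± 11.0 in Olfr160. Per 1000 of Omp, the olfactory marker protein, it averaged 62.7 ± 6.07 in Olfr1507, 36.8 ± 2.80 in Olfr73 and 44.7 ± 3.29 in Olfr160 (SD, n = 3 each). The mean was lowest in Olfr73 by all of these ratios, with Cnga2 by less than the spread between libraries, and with Cnga2 the mean of Olfr160 stood above that of Olfr1507.

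**Figure D4:**
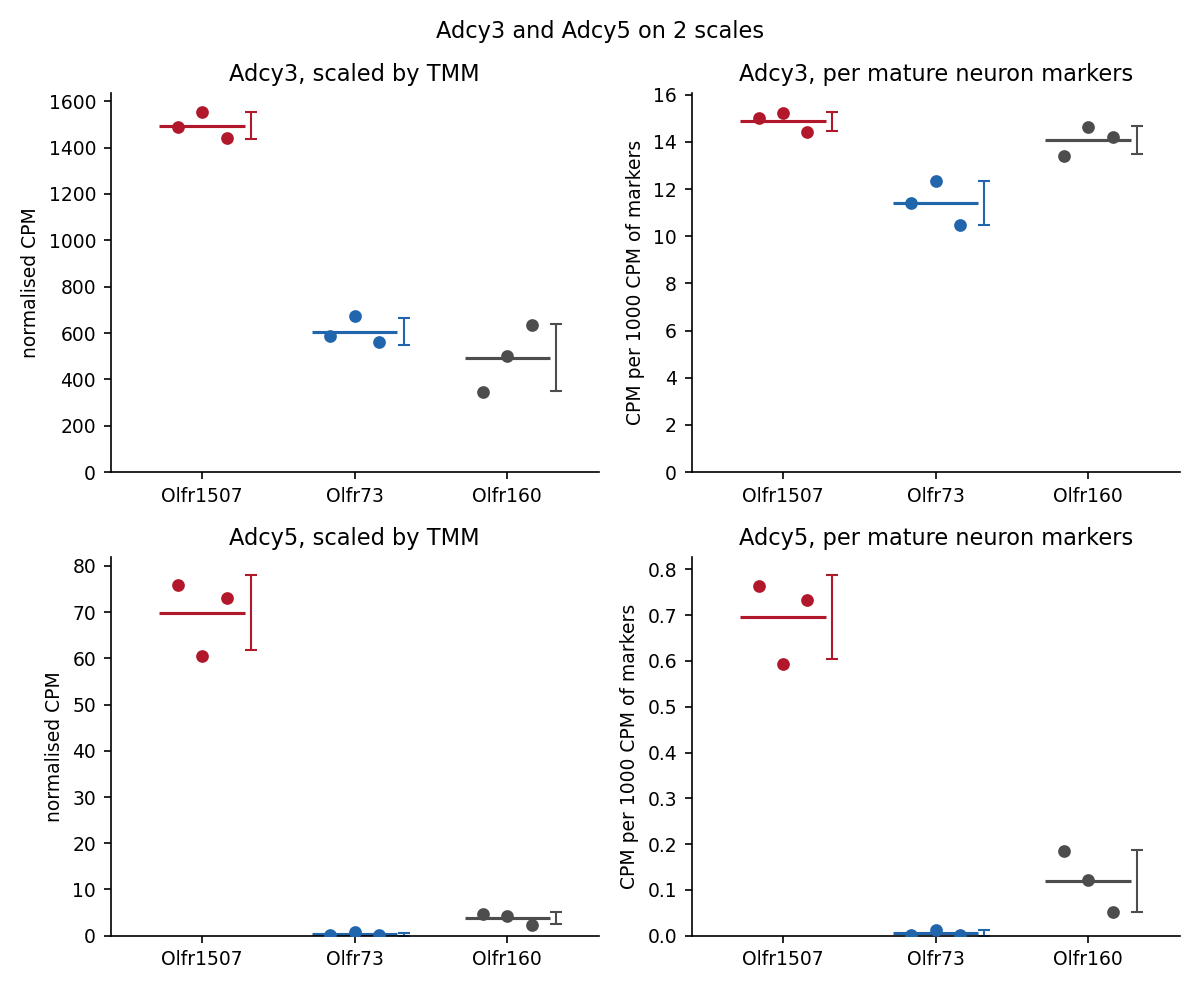
Adcy3 (top) and Adcy5 (bottom) in each library, in normalised CPM on the left and per 1000 normalised CPM of the summed mature neuron markers on the right. Points are libraries, lines are means and bars are ± SD (n = 3). Adcy3 separates Olfr1507 from both other groups on the left but overlaps between Olfr1507 (14.4 to 15.2) and Olfr160 (13.4 to 14.6) on the right, whereas Adcy5 separates the 3 groups on both scales.

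The 5 genes whose profile over the 9 libraries was most like that of Adcy3, out of 7815 searched, were Stom, Ano2, Ccdc170, Usp33 and Nbas. Likeness was the root mean square difference of mean-centred log2 normalised CPM, and it ran from 0.0787 for Stom to 0.116 for Nbas. Stom, which encodes the membrane protein stomatin, averaged 23013 normalised CPM in Olfr1507, 9940.3 in Olfr73 and 7660 in Olfr160. Ano2, the calcium-activated chloride channel of olfactory cilia, averaged 4007 in Olfr1507, 1498 in Olfr73 and 1298 in Olfr160.

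Adcy3 reads were assigned to long transcript models in all libraries. The transcript length implied by the ratio of its counts to its TPM ran from 4340 to 4451 bases over the 9 libraries, near the shortest of its 5 long GENCODE models, which measure 4348 to 5621 bases. The measure can run above a true length. For Adcy5, whose long model measures 7008 bases, it gave 7322 to 7391 bases. The gene overlaps Cenpo (chr12:4196004-4234294) on the opposite strand, and no source used here says whether the counting used strand. Cenpo averaged 12.4 normalised CPM in Olfr1507, 19.4 in Olfr73 and 16.4 in Olfr160 and was not called in any comparison, and these levels are far below those of Adcy3. The nearest gene before Adcy3, Dnajc27, stood at 59.0, 58.3 and 56.3 normalised CPM in Olfr1507, 34.1, 44.9 and 42.7 in Olfr73 and 22.3, 25.4 and 33.2 in Olfr160. The groups did not overlap, and the log2 fold changes were 1.10, 0.51 and 0.59 (edgeR adjusted p = 0.000778, 0.0397 and 0.0403 for Olfr1507 over Olfr160, Olfr1507 over Olfr73 and Olfr73 over Olfr160). The gene before that, Efr3b, which helps to place a lipid kinase at the plasma membrane, stood at 3127, 2946 and 3294 normalised CPM in Olfr1507, at 369.6, 368 and 337 in Olfr73 and at 634, 663 and 1132 in Olfr160. It also separated all 3 groups, but with Olfr73 lowest, at log2 fold changes of 1.95 (Olfr1507 over Olfr160, edgeR adjusted p = 0.000122), 3.12 (Olfr1507 over Olfr73, adjusted p = 3.26e-05) and -1.18 (Olfr73 over Olfr160, adjusted p = 0.00761). Both neighbours were named after their values were seen. Their fold changes are given with TMM alone, and scaling to the mature neuron markers moves those of Olfr1507 down as a whole.

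Adcy5 separated all 3 groups and was the 1 tested member called in all 3 comparisons. Its fold was the largest of the tested members between Olfr1507 and Olfr73, but between Olfr1507 and Olfr160 Adcy1 and Adcy6 differed more. It had 1406, 1835 and 1310 counts in the Olfr1507 libraries, 2, 15 and 2 in the Olfr73 libraries and 99, 103 and 52 in the Olfr160 libraries. In normalised CPM these were 75.9, 60.6 and 73.1 in Olfr1507, 0.0881, 0.702 and 0.0932 in Olfr73, and 4.77, 4.16 and 2.31 in Olfr160. Every Olfr1507 library was above every other one, and every Olfr73 library was below every other one.

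Adcy5 was 18.6-fold higher in Olfr1507 than in Olfr160 (log2 fold change of 4.22 with an SE of 0.46, edgeR adjusted p = 0.000119) and 235-fold higher than in Olfr73 (7.88, SE 0.59, edgeR adjusted p = 3.99e-05). It was 12.6-fold lower in Olfr73 than in Olfr160 (-3.66, SE 0.57, edgeR adjusted p = 0.00485). The large fold against Olfr73 rests on 19 counts over 3 libraries and ran from 7.44 to 9.53 on the log2 scale when each library was left out. With Olfr160 represented by library 3 alone, the difference of Olfr73 from Olfr160 was -2.97 (edgeR adjusted p = 0.134).

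Scaled to the mature neuron markers, the calls on Adcy5 stood. Per 1000 normalised CPM of the markers it was at 0.764, 0.592 and 0.732 in Olfr1507, 0.00171, 0.0129 and 0.00174 in Olfr73, and 0.186, 0.121 and 0.0518 in Olfr160. The fit with that scaling gave log2 fold changes of 2.55 (Olfr1507 over Olfr160, edgeR adjusted p = 0.00307), 6.97 (Olfr1507 over Olfr73, adjusted p = 0.000177) and -4.42 (Olfr73 over Olfr160, adjusted p = 0.00469). The TPM of Adcy5 was 3.05%, 2.33% and 3.01% of that of Adcy3 in the Olfr1507 libraries, 0.00844%, 0.0642% and 0.00896% in the Olfr73 libraries, and 0.822%, 0.496% and 0.217% in the Olfr160 libraries. Among the 3 Olfr160 libraries, the one with the highest of these percentages had the lowest share of the tagged receptor in Olfr counts (2.08%) and the one with the lowest had the highest (10.1%), a relation that was not tested.

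A check of the genes around Adcy5, chosen after its values were seen, showed no shared profile of the whole region. The nearest gene before it, Hacd2, an enzyme of very long fatty acid synthesis, averaged 13.4 normalised CPM in Olfr1507, 15.3 in Olfr73 and 9.12 in Olfr160 and was not called in any comparison. The nearest after it, Sec22a, averaged 26.2 in Olfr1507, 26.6 in Olfr73 and 40.9 in Olfr160 and was lower in Olfr1507 than in Olfr160 (-0.64, edgeR adjusted p = 0.0169). The gene after that, Pdia5, a protein disulfide isomerase of the endoplasmic reticulum, stood at 25.2, 19.2 and 16.8 in Olfr1507, at 3.43, 1.83 and 2.33 in Olfr73 and at 3.47, 4.37 and 2.62 in Olfr160. It was higher in Olfr1507 than in Olfr160 (2.54, edgeR adjusted p = 0.00028) and than in Olfr73 (3.01, edgeR adjusted p = 0.000268), and did not pass between Olfr73 and Olfr160 (-0.46, edgeR adjusted p = 0.334). Hspbap1, after Pdia5, was likewise higher in Olfr1507 than in Olfr160 (0.70, edgeR adjusted p = 0.00416) and than in Olfr73 (0.59, edgeR adjusted p = 0.0135). Before Hacd2, Mylk was lower in Olfr1507 than in Olfr160 (-4.26, edgeR adjusted p = 0.0432), and Ccdc14 was not called in any comparison. All these neighbours are given with TMM alone, and scaling to the mature neuron markers moves fold changes of Olfr1507 down as a whole.

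By the same measure, and again chosen after the values were seen, the 5 genes nearest to Adcy5 were Afap1l2 (0.57), Dnaic2 (0.59), Cidea (0.73), Krt80 (0.75) and Rec8 (0.81). These distances exceed those for Adcy3, but the measure grows with a gene's own range and counting error. They thus do not tell whether fewer genes share the profile of Adcy5. Afap1l2 averaged 33.6 normalised CPM in Olfr1507, 0.0155 in Olfr73 and 2.08 in Olfr160. Dnaic2, whose product belongs to the outer dynein arm of motile cilia, averaged 422 in Olfr1507, 10.5 in Olfr73 and 44.6 in Olfr160. Cidea, a lipid droplet protein, averaged 319.7 in Olfr1507, 10.2 in Olfr73 and 26.6 in Olfr160.

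Adcy6, the closest relative of Adcy5, went the other way. It had 4, 19 and 0 counts in Olfr1507, 52, 68 and 15.6 in Olfr73 and 288, 184 and 103 in Olfr160. In normalised CPM the groups did not overlap, though Olfr1507 library 2 and Olfr73 library 3 were close, at 0.627 and 0.746. Adcy6 was lower in Olfr1507 than in Olfr160 (log2 fold change of -4.82 with an SE of 1.01, edgeR adjusted p = 0.00414) and than in Olfr73 (-2.76, SE 0.95, edgeR adjusted p = 0.0484), and did not pass between Olfr73 and Olfr160 (-2.05, SE 0.87, edgeR adjusted p = 0.131). The call against Olfr73 was weak: it was lost in 7 of 9 fits that left out a library, and over 20 alternatives it passed in 8, with adjusted p of 0.0065 to 0.207 by edgeR, DESeq2 or limma. The call against Olfr160 passed in 20 of 21 alternatives and was lost with Olfr160 library 3 alone (-3.94, edgeR adjusted p = 0.0831).

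Adcy9, the forskolin-insensitive enzyme, was highest in Olfr73. It had 14, 8 and 15 counts in Olfr1507, 61, 79 and 170 in Olfr73 and 60, 55 and 40 in Olfr160, which are 0.756, 0.264 and 0.837 normalised CPM in Olfr1507, 2.69, 3.70 and 7.92 in Olfr73 and 2.89, 2.22 and 1.78 in Olfr160. Olfr73 library 3 stood far above its group, and Olfr73 and Olfr160 overlapped (1.05, SE 0.57, edgeR adjusted p = 0.228). Adcy9 was lower in Olfr1507 than in Olfr73 (-2.96, SE 0.62, edgeR adjusted p = 0.00642) and than in Olfr160 (-1.90, SE 0.60, edgeR adjusted p = 0.0269). The call against Olfr160 was lost without Olfr1507 library 1 (0.0537) or 2 (0.0801), without Olfr160 library 1 (0.0769) or 2 (0.0559), and with Olfr160 library 3 alone (0.253), and it passed in 15 of 21 alternatives. The call against Olfr73 passed in 20 of 20.

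Of the cyclases stimulated by G beta gamma subunits, Adcy7 was the one tested. Known from blood cells and platelets among other tissues, it had 5, 10 and 13 counts in Olfr1507, 37, 24 and 17 in Olfr73 and 52, 42 and 57 in Olfr160. In normalised CPM the 3 groups did not overlap, at 0.270 to 0.726 in Olfr1507, 0.792 to 1.63 in Olfr73 and 1.70 to 2.53 in Olfr160. It was lower in Olfr1507 than in Olfr160 (-2.34, SE 0.62, edgeR adjusted p = 0.0122), a call lost without Olfr1507 library 2 (0.0518) and with Olfr160 library 3 alone (0.112). It did not pass between Olfr1507 and Olfr73 (-1.42, SE 0.61, edgeR adjusted p = 0.0963) or between Olfr73 and Olfr160 (-0.92, SE 0.58, edgeR adjusted p = 0.298). Its implied transcript length was 6155 to 6190 bases in the Olfr73 libraries with at least 20 counts. That is above its longest GENCODE model of 5951 bases, so the measure is rough. In Olfr160 libraries 1, 2 and 3 the implied length was 3056, 3904 and 5902 bases. Reads of libraries 1 and 2 were thus partly assigned to shorter models, on 52 and 42 counts, while library 3 lay near the long ones.

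Adcy2 had 2, 2 and 1 counts in Olfr1507, 2, 3 and 4 in Olfr73 and 5, 47 and 21 in Olfr160 and was not tested. Adcy4 had 0 counts in all Olfr1507 and Olfr73 libraries and 8, 16 and 2 in Olfr160. With 3 counts over a group as the floor, Adcy4 was at least 8.51-fold lower in Olfr1507 and 8.35-fold lower in Olfr73 than the pooled level of Olfr160. These folds bound only the groups at 0 and leave out the spread between the Olfr160 libraries. Adcy4 was not tested. Adcy1, the calmodulin-stimulated enzyme of neurons, had 0 counts in all Olfr1507 libraries, 0, 20 and 0 in Olfr73 and 51, 65 and 42 in Olfr160. With the same floor it was at least 51.7-fold lower in Olfr1507 than the pooled level of Olfr160, again without the spread of that group. Adcy1 passed the low-count filter through Olfr160, so no support is drawn from its call there (edgeR adjusted p = 0.0188). All 20 counts of Olfr73 were in library 2, so no bound is given for Olfr1507 against Olfr73, which did not pass (edgeR adjusted p = 0.0953) and had 0 counts in both groups without that library. Between Olfr73 and Olfr160 it did not pass (-2.88, SE 1.53, edgeR adjusted p = 0.233) but did without Olfr73 library 2 (edgeR adjusted p = 0.0218), and in 3 of 21 alternatives in all. Adcy10, the soluble cyclase that responds to bicarbonate and is no member of the membrane family, had 11 counts in all 9 libraries together.

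For Adcy1, Adcy2, Adcy4, Adcy6 and Adcy7, the mean was highest in Olfr160, the group with the most RNA of sustentacular, immune, basal and endothelial markers. Within Olfr160, the sustentacular and gland cell markers stood at 25267, 51205 and 20850 normalised CPM and the immune markers at 739, 632 and 249 in libraries 1, 2 and 3. Adcy6 stood at 13.9, 7.44 and 4.58, Adcy1 at 2.46, 2.63 and 1.87, Adcy2 at 0.241, 1.90 and 0.934, and Adcy7 at 2.50, 1.70 and 2.53 normalised CPM in those libraries. Library 3 was the lowest of the group for Adcy1 and Adcy6 and also had the lowest sustentacular and immune sums. The part of other cells in these levels was not tested.

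Scaling to the mature neuron markers moves fold changes of Olfr1507 down as a whole, so members already lower there could not turn round under it. Of those that were higher, Adcy5 stayed called in both comparisons of Olfr1507 and Adcy3 only against Olfr73. Adcy6 was then at -6.54 (Olfr1507 over Olfr160, edgeR adjusted p = 0.000551) and -3.67 (Olfr1507 over Olfr73, adjusted p = 0.0129), and Adcy9 at -3.54 (adjusted p = 0.00131) and -3.85 (adjusted p = 0.00223). These values stand beside medians over all genes of -1.74 and -1.07.

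The partners of the cyclases were described from lists of cAMP pathway genes, whose counts are to be read against the shares of all genes called. Of 15 G protein genes and their chaperones, 5 were higher and 6 lower in Olfr1507 than in Olfr160, 2 higher and 4 lower in Olfr1507 than in Olfr73, and 2 higher and 3 lower in Olfr73 than in Olfr160. The shares of all genes higher and lower were 20.7% and 27.7%, 14.5% and 19.9%, and 7.45% and 10.5% in these comparisons. Scaled to the mature neuron markers, 0 of the 15 were higher and 9 lower in Olfr1507 than in Olfr160, and 1 higher and 9 lower than in Olfr73. Gnal, the stimulatory alpha subunit of the cascade, stood at 18457, 19346 and 17651 normalised CPM in Olfr1507, 11665, 11691 and 12048 in Olfr73 and 4332, 6552 and 8992 in Olfr160, with no overlap. It was higher in Olfr1507 than in Olfr160 (1.48, SE 0.23, edgeR adjusted p = 0.00083) and just missed the threshold against Olfr73 (0.65, SE 0.22, edgeR adjusted p = 0.0505). Scaled to the neuron markers, of which it is one, Gnal was at -0.024 against Olfr160 (edgeR adjusted p = 0.803). On that scale it was lower in Olfr1507 than in Olfr73 (-0.27, edgeR adjusted p = 0.0241). With library size alone it did not pass between Olfr1507 and Olfr73 (0.33, edgeR adjusted p = 0.195). Ric8b, the chaperone of that subunit, stood at 2878, 2812 and 2210.2 in Olfr1507, at 994, 911 and 829 in Olfr73 and at 601, 937 and 1464 in Olfr160. It was higher in Olfr1507 than in Olfr160 (1.40, SE 0.28, edgeR adjusted p = 0.00318) and than in Olfr73 (1.53, SE 0.28, edgeR adjusted p = 0.00335), with Olfr73 and Olfr160 overlapping. With the neuron marker scaling the call against Olfr160 was lost (-0.087, edgeR adjusted p = 0.606), that against Olfr73 stood (0.61, edgeR adjusted p = 0.00943), and Ric8b was lower in Olfr73 than in Olfr160 (-0.70, edgeR adjusted p = 0.0128).

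Other G protein subunits followed different patterns. Gnas, the general stimulatory subunit, stood at 4.48, 8.55 and 8.04 normalised CPM in Olfr1507, 8.19, 8.62 and 4.33 in Olfr73 and 45.4, 35.6 and 21.4 in Olfr160, with Olfr160 above both other groups. Its log2 fold change was -2.28 between Olfr1507 and Olfr160 (edgeR adjusted p = 0.00123) and also -2.28 between Olfr73 and Olfr160 (edgeR adjusted p = 0.00608). Gnai2, an inhibitory subunit, had at most 0.0558 normalised CPM in Olfr1507, 0.468 to 1.12 in Olfr73 and 1.25 to 3.85 in Olfr160. That is the order of the sustentacular and immune markers, and the part of those cells was not tested. Gnb1, a beta subunit of the cascade, was instead lowest in Olfr160. It stood at 2784, 3357 and 2478 normalised CPM in Olfr1507, 3429, 3362 and 3594 in Olfr73 and 768, 1144 and 1458 in Olfr160. It was higher than in Olfr160 both in Olfr73 (1.62, edgeR adjusted p = 0.00308) and in Olfr1507 (1.35, edgeR adjusted p = 0.00103). Scaled to the neuron markers, Gnb1 did not pass between Olfr1507 and Olfr160 (-0.16, edgeR adjusted p = 0.209). On that scale it was higher in Olfr73 than in Olfr160 (1.03, edgeR adjusted p = 0.00367) and lower in Olfr1507 than in Olfr73 (-1.19, edgeR adjusted p = 0.000107). The median log2 fold change of the list was 0.12 and its mean -1.39 between Olfr1507 and Olfr160, so the 2 differ in sign. Medians and means differed in sign between Olfr1507 and Olfr160 also for the calcium side genes (0.32 and -0.35), protein kinase A and its anchors (0.32 and -0.48) and the other effectors (0.29 and -1.09). The lists' medians were the same with genes at 0 set at their bound, since those genes stayed below the median. The means, which depend on the prior count of the fit for such genes, were not computed with bounds.

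The transduction channel list held 6 genes, among them Stoml3, which is not itself a channel. Of these 6, 6 were higher in Olfr1507 than in Olfr160, 5 higher in Olfr1507 than in Olfr73 and 2 higher in Olfr73 than in Olfr160. The shares of all genes were 20.7%, 14.5% and 7.45%. The list's medians were 1.68, 1.19 and 0.57, beside -0.14, -0.15 and -0.012 over all genes. Cnga2, the main subunit of the cAMP-gated channel, stood at 10261, 11354 and 10779 normalised CPM in Olfr1507, 4610.1, 4596 and 4685 in Olfr73 and 2357, 3002 and 3948 in Olfr160. It separated the groups, with log2 fold changes of 1.80, 1.22 and 0.58 (edgeR adjusted p = 7.49e-05, 0.00107 and 0.0481 for Olfr1507 over Olfr160, Olfr1507 over Olfr73 and Olfr73 over Olfr160). Under scaling to the mature neuron markers, a list that holds 5 of these 6 genes, 2 were higher and 1 lower in Olfr1507 than in Olfr160, and Cnga2 no longer passed between Olfr73 and Olfr160 (-0.033, edgeR adjusted p = 0.769).

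Among 14 genes that act on cyclases from the calcium side, 5 were higher and 3 lower in Olfr1507 than in Olfr160, 2 higher and 2 lower in Olfr1507 than in Olfr73, and 4 higher and 2 lower in Olfr73 than in Olfr160. Of all genes, 20.7% were higher and 27.7% lower in the first comparison, 14.5% and 19.9% in the second and 7.45% and 10.5% in the third. The balance turned under scaling to the neuron markers, with 1 higher and 12 lower in Olfr1507 than in Olfr160 and 1 higher and 9 lower than in Olfr73. Ppp3ca, the catalytic subunit of the calcium-dependent phosphatase calcineurin, stood at 397, 412 and 273 normalised CPM in Olfr1507, 85.6, 66.2 and 66.6 in Olfr73 and 46.6, 73.9 and 76.0 in Olfr160. It was higher in Olfr1507 than in Olfr160 (2.46, SE 0.23, edgeR adjusted p = 5.44e-05) and than in Olfr73 (2.31, SE 0.23, edgeR adjusted p = 0.000175), and was still 0.92 higher against Olfr160 under scaling to the neuron markers (edgeR adjusted p = 0.00172). Rgs2, an RGS protein known from work on olfactory neurons to lower the activity of Adcy3, stood at 0.648, 0.429 and 0.502 in Olfr1507, 4.36, 2.67 and 0.792 in Olfr73 and 21.6, 23.4 and 9.83 in Olfr160. The groups did not overlap, and all 3 comparisons were called (-5.11, -2.31 and -2.80, with edgeR adjusted p of 0.000307, 0.018 and 0.0126 for Olfr1507 over Olfr160, Olfr1507 over Olfr73 and Olfr73 over Olfr160). For Rgs2 the groups stood in the order of the sustentacular and immune markers, and the part of those cells was not tested.

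Of 16 phosphodiesterase genes, whose products break down cAMP or cyclic GMP, 4 were higher and 7 lower in Olfr1507 than in Olfr160, 5 higher and 2 lower in Olfr1507 than in Olfr73, and 0 higher and 3 lower in Olfr73 than in Olfr160. The shares of all genes were 20.7% and 27.7%, 14.5% and 19.9%, and 7.45% and 10.5%. Between Olfr1507 and Olfr160 scaling by library size left 1 higher and 8 lower, and the neuron marker scaling left 0 higher and 10 lower. The medians were -1.43, -0.022 and -1.13 with TMM. Pde4a, a cAMP phosphodiesterase of the olfactory dendrite and axon, stood at 2261, 2093 and 1818 normalised CPM in Olfr1507, 710.2, 564 and 583 in Olfr73 and 492, 538 and 867 in Olfr160. It was higher in Olfr1507 than in Olfr160 (1.70, SE 0.22, edgeR adjusted p = 0.000283) and than in Olfr73 (1.73, SE 0.22, edgeR adjusted p = 0.00054), and Olfr73 and Olfr160 overlapped. Under scaling to the neuron markers Pde4a did not pass against Olfr160 (0.18, edgeR adjusted p = 0.271), stayed higher than in Olfr73 (0.81, edgeR adjusted p = 0.00208) and was lower in Olfr73 than in Olfr160 (-0.63, edgeR adjusted p = 0.0151). Pde1c, the calmodulin-dependent enzyme of the cilia, differed less, at 1561, 1454 and 1828 in Olfr1507, 1104, 1238 and 1133 in Olfr73 and 705, 849 and 1322 in Olfr160. It was 0.75 higher in Olfr1507 than in Olfr160 (SE 0.21, edgeR adjusted p = 0.0165) but did not pass with library size alone (0.34, edgeR adjusted p = 0.157) and was lower under scaling to the neuron markers (-0.76, edgeR adjusted p = 0.000376).

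Pde4b, an enzyme also known from immune cells, went the other way, at 0.648, 2.18 and 1.28 normalised CPM in Olfr1507, 9.20, 15.2 and 6.48 in Olfr73 and 36.5, 37.5 and 22.8 in Olfr160. The groups did not overlap, and the log2 fold changes were -4.51, -2.87 and -1.65 (edgeR adjusted p = 0.000118, 0.00189 and 0.0281 for Olfr1507 over Olfr160, Olfr1507 over Olfr73 and Olfr73 over Olfr160). This order of the groups was also that of the sustentacular and immune markers, and the part of those cells was not tested. Pde2a, a cyclic GMP-stimulated enzyme that marks necklace neurons, was lower in Olfr1507 than in Olfr160 (-3.03, edgeR adjusted p = 0.000559) and in Olfr73 than in Olfr160 (-2.19, edgeR adjusted p = 0.0101). The 4 necklace neuron markers, Pde2a among them, summed to 61.4 to 125 normalised CPM in Olfr1507, 47.6 to 89.0 in Olfr73 and 116 to 345 in Olfr160. Most of each of these sums was Car2. Pde3a had 0 counts in Olfr1507. With a floor of 3 counts it was at least 56.3-fold lower there than the pooled level of Olfr160 and 21.7-fold lower than that of Olfr73. These folds leave out the spread of the other groups.

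**Figure D5:**
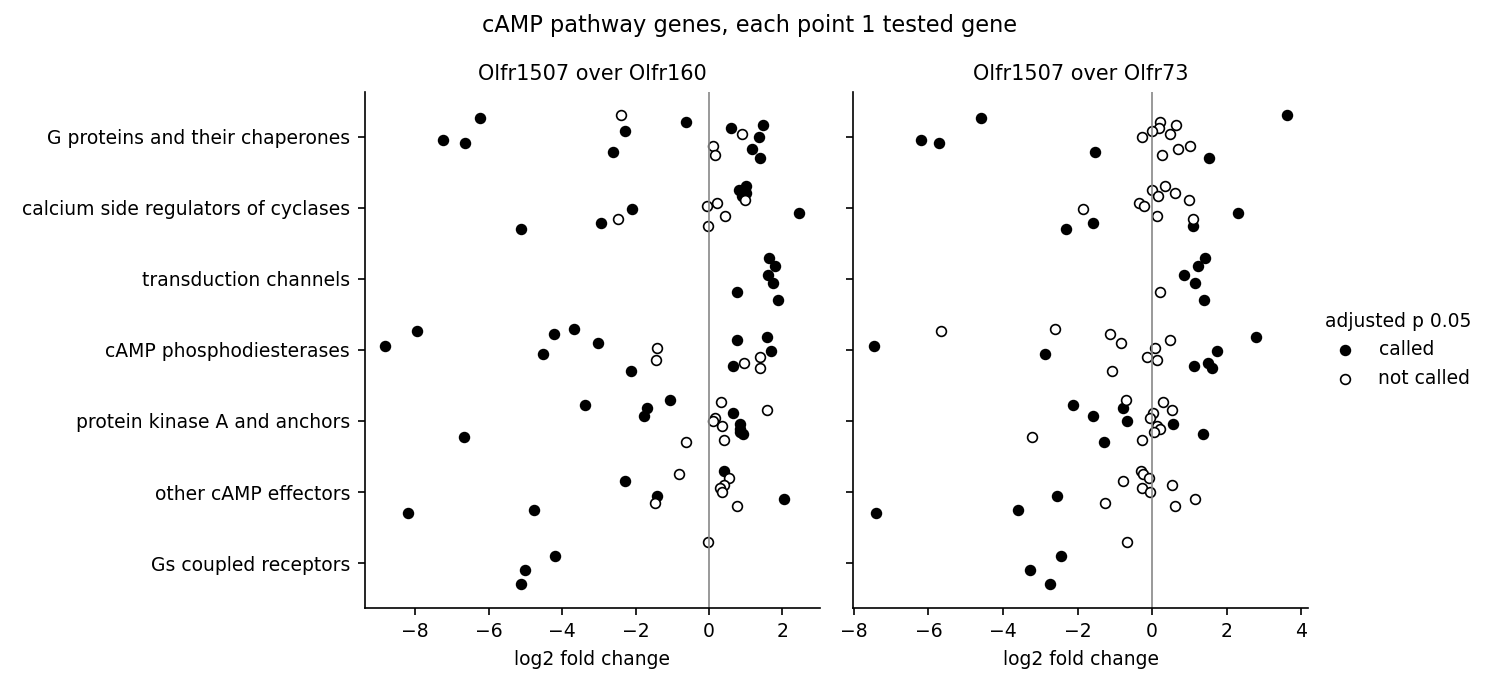
edgeR log2 fold changes of the tested members of 7 lists of cAMP pathway genes, Olfr1507 over Olfr160 on the left and Olfr1507 over Olfr73 on the right, 1 point per gene. Filled points are called at an adjusted p under 0.05. With TMM the 6 genes of the transduction channel list lie right of 0 in both panels (1 was lower under scaling to the neuron markers). The other lists hold genes on both sides or, for the receptors coupled to Gs, 3 called genes on the left. Fitted values of genes with 0 counts in Olfr1507, such as Pde3a and Rapgef4, depend on the prior count.

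Downstream of cAMP, 5 of 17 genes of protein kinase A and its anchors were higher and 5 lower in Olfr1507 than in Olfr160, 2 higher and 5 lower in Olfr1507 than in Olfr73, and 5 higher and 3 lower in Olfr73 than in Olfr160, beside 20.7% and 27.7%, 14.5% and 19.9%, and 7.45% and 10.5% of all genes. This balance depended on the scaling: between Olfr1507 and Olfr160, library size gave 2 higher and 5 lower, and the neuron markers gave 0 higher and 16 lower. Prkar1a, a regulatory subunit, stood at 997, 905 and 679 normalised CPM in Olfr1507, 375, 334 and 296 in Olfr73 and 304, 485 and 568 in Olfr160, and was higher in Olfr1507 than in Olfr160 (0.93, edgeR adjusted p = 0.0092) and than in Olfr73 (1.36, edgeR adjusted p = 0.00248). Its value against Olfr160 was 0.52 with library size alone (edgeR adjusted p = 0.0608) and -0.59 under scaling to the neuron markers (edgeR adjusted p = 0.00763). Akap12, an anchor protein, was lower in Olfr1507 than in Olfr160 (-3.36, edgeR adjusted p = 9.14e-05) and than in Olfr73 (-2.13, edgeR adjusted p = 0.00162). Of 16 other effectors, 13 were tested, with 2 higher and 4 lower in Olfr1507 than in Olfr160, 0 higher and 3 lower in Olfr1507 than in Olfr73, and 1 higher and 0 lower in Olfr73 than in Olfr160, beside the same shares of all genes. Between Olfr1507 and Olfr160, scaling by library size gave 0 higher and 4 lower, and the neuron markers gave 0 higher and 12 lower. Rapgef3, which encodes the cAMP sensor Epac1, was among the lower ones (-4.76 and -3.59 for Olfr1507 over Olfr160 and over Olfr73, edgeR adjusted p = 0.000325 and 0.00221). Akap12 and Rapgef3 had group means in the order of the sustentacular and immune markers, and the part of those cells was not tested.

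Receptors that could feed other cyclases were scarce. Of 14 receptors coupled to Gs, 4 had enough counts to be tested, and 3 were lower in Olfr1507 than in Olfr160 and than in Olfr73, among them Ptger2 and Adora2b, receptors for prostaglandin E2 and adenosine. Of all genes, 27.7% and 19.9% were lower in these comparisons. Ptger2 stood at 0.432, 1.62 and 0.670 normalised CPM in Olfr1507, 7.93, 9.08 and 2.05 in Olfr73 and 41.5, 35.8 and 21.9 in Olfr160. Its log2 fold changes were -5.12, -2.74 and -2.38 (edgeR adjusted p = 0.000325, 0.0093 and 0.0228 for Olfr1507 over Olfr160, Olfr1507 over Olfr73 and Olfr73 over Olfr160). The groups did not overlap, in the order of the sustentacular and immune markers, and the part of those cells was not tested.

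Of 11 soluble and guanylyl cyclases, 6 were tested. Gucy2c, the guanylyl cyclase known in gut as the receptor for guanylin, shared with Adcy5 a near absence from Olfr73, at 6.37, 4.36 and 8.77 normalised CPM in Olfr1507, 0, 0.0468 and 0 in Olfr73 and 4.77, 6.06 and 3.25 in Olfr160. Olfr1507 and Olfr160 overlapped (0.47, SE 0.49, edgeR adjusted p = 0.453), unlike for Adcy5, and Olfr73 held 1 count in all and was lower than Olfr160 (edgeR adjusted p = 0.00152). Of the 4 Ebf genes, which encode transcription factors of olfactory neurons, 1 was higher in Olfr1507 than in Olfr160 (Ebf2, 0.53, edgeR adjusted p = 0.0242), 1 was lower in Olfr1507 than in Olfr73 (Ebf4, -0.77, edgeR adjusted p = 0.0297) and 2 were higher in Olfr73 than in Olfr160, against 20.7%, 19.9% and 7.45% of all genes in those directions. These counts depended on the scaling: with library size alone they were 0, 1 and 1, and with the neuron markers all 4 Ebf genes were lower in Olfr1507 than in both other groups and 0 differed by the test between Olfr73 and Olfr160.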

How the data were processed

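RNA-seq was analysed in 9 libraries, 3 per group. Reads were aligned to mm10 with STAR 2.6.1 and quantified with RSEM 1.3.1, and DESeq2 is listed without a version, per the submitters' processing notes. The annotation release is not given in the sources used here, and 98.7% of the tables' transcript identifiers were found in GENCODE M21, which gave the coordinates. The authors deposited 2 gene tables, the first of RSEM expected counts and the second of TPM. Columns carry older receptor names (MOR28, MOR174-9 and M72), matched to Olfr1507, Olfr73 and Olfr160 through RefSeq synonyms.

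After rounding of the expected counts, edgeR 4.0.16 was run in R 4.3.3 (filterByExpr by group, TMM, robust quasi-likelihood F test, means model by group on 9 libraries, Benjamini-Hochberg over 16399 genes). The SE is the log2 fold change divided by the square root of F. Levels are normalised CPM within a gene and TPM between genes. Floors used 3 counts over a group, and fold bounds set the other group's pooled level against that floor without its spread. The members, the lists and the tests were chosen with earlier results of these data known. Named were all 9 members, up to 3 called genes per pathway list and comparison with the lowest adjusted p, Gnal, Omp, Cnga2, Ric8b, Pde1c, Pde4a, Pde2a, Rgs2 and Adcy10 whatever their test, and the 5 genes most like Adcy3 among those with at least 10 normalised CPM on average (pseudocount 0.5). The text names part of these, and a few single genes are left out. Alternatives were RLE size factors, library size alone, scaling to neuron markers, a filter of 5 CPM in 3 libraries or none, DESeq2 1.42.0, limma 3.58.1 (voom, and log2 TPM with pseudocounts of 1 and 0.1), Olfr genes left out, expected counts in place of TPM for the shares, the replicate block, only the 6 libraries compared, each library left out, and, chosen after seeing the data, Olfr160 library 3 alone. The fit was also run on simulated data in which a small set of well-expressed genes was raised in Olfr1507. Far fewer genes change there than here, so no support for the calls is drawn from it. Python 3.11.15, pandas 2.3.3, numpy 2.4.6, scipy 1.17.1 and matplotlib 3.10.9 were used.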

Additional observations from a re-analysis of the deposited data

How the results depend on the processing

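Scaling to the mature neuron markers raised the genes called to 14079 (Olfr1507 over Olfr160), 9976 (Olfr1507 over Olfr73) and 4991 (Olfr73 over Olfr160), most of them lower in the group named first, put Adcy3 at 0.079, 0.38 and -0.30 in log2 and called 2 cyclases between Olfr73 and Olfr160. With Olfr160 library 3 alone, 3337 genes and 2 cyclases were called in the first comparison and 61 genes and 0 cyclases in the last, where Adcy3 was -0.070. The filter of 5 CPM in 3 libraries left 2 cyclases called in each comparison of Olfr1507, since the low members were not tested. Between Olfr73 and Olfr160, limma-voom called 4453 genes and 3 cyclases, limma on log2 TPM called 3 cyclases with a pseudocount of 1 and 2 with 0.1, and DESeq2 called 2. The cause of these differences was not tested. The Adcy3 share in Olfr1507 over Olfr160 was -0.087 points from expected counts.

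Leaving out each library gave 6391 to 8890 genes (Olfr1507 over Olfr160), 3657 to 5546 (Olfr1507 over Olfr73, the lowest without Olfr1507 library 1) and 976 to 3062 (Olfr73 over Olfr160, 976 without Olfr160 library 2, 1408 without Olfr160 library 1 and 1878 without Olfr73 library 3). Cyclases called ran from 4 to 7, 3 to 4 and 1 to 2, the log2 fold change of Adcy3 from 1.39 to 1.82, 1.25 to 1.40 and 0.090 to 0.52, and its share difference from -0.27 to 2.38, -1.72 to -1.39 and 1.24 to 3.89 points.

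The deviations of libraries with the same replicate number correlated at -0.193 to 0.13, so the numbers were not taken to pair the samples. With the replicate block, 7398, 4804 and 2485 genes and 6, 4 and 1 cyclases were called, and Adcy3 was at 1.62, 1.3 and 0.32. Low counts limit Adcy1, Adcy2, Adcy4, Adcy6, Adcy7 and Adcy9, most of them below 100 counts per library.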
